A study of Trichoderma reesei with 6 samples.

Results

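The subject is a set of 129 gene models of the filamentous fungus Trichoderma reesei whose RNA level was highest in xylose library 1, lower in library 2 and lowest in library 3, out of 9129 models in the deposited table. The models were chosen by their measured levels in FPKM, the number of sequenced fragments scaled to the length of the model and to the size of the library. A member had xylose 1 above xylose 2 above xylose 3, with xylose 1 at least 3 times xylose 3. Its mean over the xylose libraries was from 10 to under 150 FPKM, its mean over the glucose libraries was from 1 to under 300 FPKM, and its xylose mean was above 0.25 of its glucose mean. Models of scaffolds 7, 29 and 33, 605 in all, were left out. The numbers 1, 2 and 3 are used as names only, since the labels give no dose, time or other order for them. The order and the size of the fall, the xylose and glucose means and their ratio were therefore used to choose the members. They are given as a description, and no test on them is used as support. Calls from the fit over all models are printed for the members as counts only.

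Both groups were hyphae of strain HJ48, aged 4 days and grown under anaerobic fermentation, and they differed by the sugar fermented, which was glucose in 3 libraries and xylose in 3. The series title calls the strains recombinant, and no modification is named in the sample labels. Nothing in the labels says whether libraries of 1 sugar came from separate cultures, so the spread between them may be technical. Whole reads were recovered from the smallest FPKM steps, and their library totals were 8887469 to 10102493 in glucose and 10739898 to 11449774 in xylose. Across the 7766 tested models, those averaging 1 FPKM or more, the xylose libraries stood farther apart from each other than the glucose libraries did. Pearson correlations across genes of log2(FPKM + 1) were 0.96 between xylose 1 and 3, 0.972 between xylose 2 and 3, 0.977 between xylose 1 and 2, and from 0.989 to 0.992 within glucose. Genes are no independent replicates, so these values only describe the libraries. In such bulk RNA, fewer cells that express a gene and less RNA per cell cannot be told apart.

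Xylose is a pentose sugar. Filamentous fungi reduce it to xylitol, oxidize xylitol to xylulose and phosphorylate xylulose, which then enters the pentose phosphate pathway. In T. reesei xylose is also a signal, since it can induce genes for plant cell wall degrading enzymes through the regulator XYR1, while glucose represses many genes for the use of other carbon sources through CRE1. The table names models by prediction series and pairs none of them with a gene name or product. None of the 129 names (0 matched) was an identifier of the 9116 genes in the RefSeq table of strain QM6a, so no role is given to any member, and the hyphal label could not be checked against marker genes.

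The members were higher in xylose 1 than in xylose 3 by a median of 3.61-fold, with quartiles of 3.23 and 4.39. In xylose 1 the lowest member had 14.6 FPKM, the median member 37.3 and the highest 254.1. In xylose 2 these values were 3.64, 22.0 and 151.3 FPKM, and in xylose 3 they were 2.92, 9.59 and 73.8. The same models stood lower on glucose, with medians of 4.09, 5.16 and 3.81 FPKM in glucose 1, 2 and 3. As a group the members held 0.951% of the reads of xylose 1, 0.527% of xylose 2 and 0.218% of xylose 3. They held 0.139%, 0.171% and 0.134% of the reads of glucose 1, 2 and 3. All models in the same ranges of level, members included, held 23.6%, 20.5% and 17.9% of the reads of xylose 1, 2 and 3. In glucose 1, 2 and 3 they held 14%, 14.4% and 13.7%, so a larger share in every xylose library was not peculiar to the members. The members' median SD of log2(FPKM + 1) over the libraries of a sugar was 0.909 in xylose, where the rule required a 3-fold range, and 0.224 in glucose. Over all models in those ranges of level it was 0.296 in xylose and 0.178 in glucose.

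**Figure D1:**
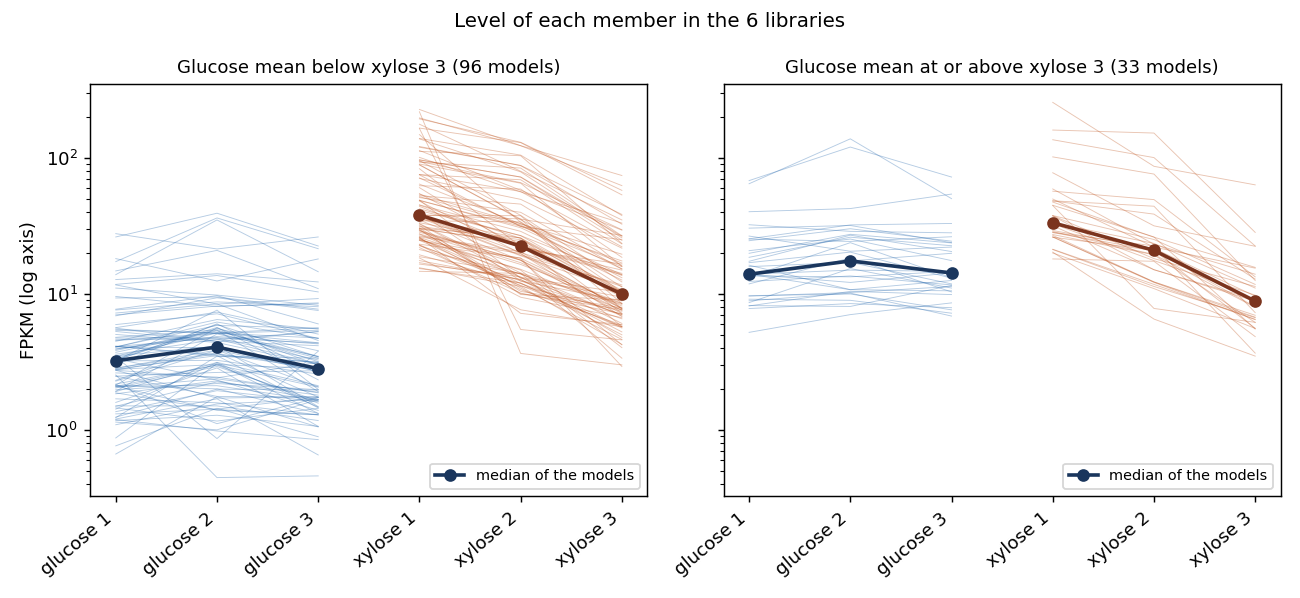
FPKM of each of the 129 members (thin lines, log axis) in the 3 glucose libraries (blue) and the 3 xylose libraries (orange), with the median over models as large points. The left panel holds the 96 members whose glucose mean lay below xylose 3 and the right panel the other 33; lines join libraries of 1 sugar, and the library numbers are names only.

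The order of the 3 xylose libraries was not peculiar to these models. In the same ranges of level, and off the scaffolds left out, the table held 3566 models, called reference models here, and 1945 of them (54.5%) had xylose 1 above 2 above 3. Over all 7766 tested models the share was 48.8%. Members made up 3.62% of the reference models, and the order with at least a 3-fold difference was met by 4.73% of all tested models. The opposite pattern, with xylose 3 highest and at least 3 times xylose 1, was met by 0 reference models in FPKM as deposited. It was not counted on other scales, where that number may differ. The lowest ratio of xylose 1 to xylose 3 among the reference models was 0.424 as deposited, and the scaling described below lowers every such ratio. The median reference model was 1.4 times as high in xylose 1 as in xylose 3, against 3.61 times for the median member.

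The ratios themselves, but not the distance between members and reference models, moved with the scaling of the libraries. With levels divided by the median of ratios, which removes a shift common to most models, the median reference model had a ratio of xylose 1 to xylose 3 of 0.966 and the median member one of 2.49. On that scale xylose 1 was above xylose 3 in all 129 members, since the limit of 3 is larger than that factor, and 114 kept the full order of the 3 libraries, as did 22.8% of the reference models. A ratio of at least 3 was kept by 35 members. When the whole rule was applied to the rescaled table it found 24 models, of which 23 were among the 129. This scaling multiplies the ratio of every model by 1 factor, so the ranking of models by that ratio is the same on both scales.

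**Figure D2:**
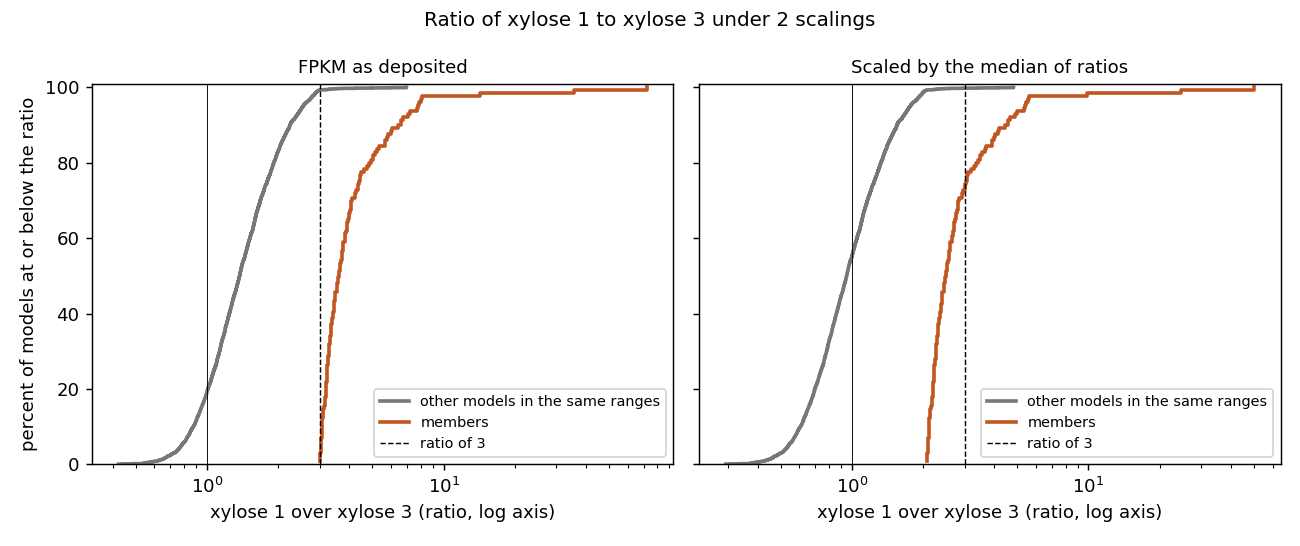
Percent of models (vertical axis) at or below each ratio of xylose 1 to xylose 3 (horizontal log axis), for the 129 members (orange) and the other reference models (grey). The left panel shows FPKM as deposited, where all members start at the chosen limit of 3, and the right panel levels scaled by the median of ratios, where the median of all reference models is 0.966 and that of the members 2.49.

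Read depth set how precisely each ratio was known. The lowest member had 72 reads in xylose 1, 33 in xylose 2 and 24 in xylose 3, and the median member had 458, 256 and 121. The exact 95% counting interval of the ratio of xylose 1 to xylose 3 included the limit of 3 for 66 members, which could thus fall on the other side of that limit by counting alone. The interval of xylose 1 over xylose 2 included 1 in 13 members and that of xylose 2 over xylose 3 in 8. No member had both steps unresolved, so 21 members had 1 step that this depth did not resolve. These intervals compare libraries, not sugars, and cover counting error only.

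The members just inside the limit were e_gw1.12.560.1 and e_gw1.23.82.1, with ratios of xylose 1 to xylose 3 of 3.002 and 3.006. The models just outside it were gw1.1.213.1 and estExt_fgenesh1_pm.C_140054, with ratios of 2.994 and 2.993. e_gw1.12.560.1 had 74.6, 31.1 and 24.9 FPKM in xylose 1, 2 and 3, and gw1.1.213.1 had 23.5, 21.9 and 7.84. A ratio from 3 to under 4 was seen in 86 members, from 4 to under 6 in 28, from 6 to under 10 in 12, and of 10 or more in 3. By level in xylose, the median ratio was 3.63 for the 54 members under 20 FPKM and 3.47 for the 48 from 20 to under 50 FPKM. It was 3.72 for the 27 from 50 FPKM upward. The rule used both the ratio and the xylose mean, and the limit of 3 bounds the ratio from below. Nothing is therefore read from the likeness of these medians.

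The rule placed xylose 2 between the other libraries but not how near it lay to either, and this differed widely among members. On the log2 scale a median of 38.7% of the total difference lay between xylose 1 and xylose 2, with quartiles of 22.2% and 57.1%. The larger step was the one between xylose 2 and xylose 3 in 78 members and the one between xylose 1 and xylose 2 in 51. Among the 1945 reference models with the same order, members included, the median was 51.2%, and the larger step lay between xylose 1 and xylose 2 in 51.8% of models against 39.5% of members. With the median of ratios the members' median was 30.8%. The limit of 3 acts on the total difference, and its part in where the larger step lay was not tested. Of all reference models, whatever the order of the xylose libraries, 69 had xylose 2 at least 3 times xylose 3. Xylose 1 was at least 3 times xylose 2 in 15. The shares of members and reference models are a description, and no test over samples can be made with 1 library at each place.

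In some members nearly all of the difference lay between xylose 2 and 3. Xylose 2 was at least 0.9 of xylose 1 in 11 members and at least 3 times xylose 3 in 27. The member with the smallest share of its difference between xylose 1 and 2 was estExt_Genewise1.C_120561, on scaffold 12 with an implied length of 1074 nt. It had 37.7, 37.4 and 8.46 FPKM in xylose 1, 2 and 3 and 1.36, 1.94 and 1.61 in glucose 1, 2 and 3. The first pair of xylose libraries was alike for this model, and every xylose library was above every glucose library. Of the 27 members with xylose 2 at least 3 times xylose 3, 12 had xylose 3 within or below the range of the glucose libraries.

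In others the larger part of the difference lay between xylose 1 and 2. Xylose 1 was at least 3 times xylose 2 in 10 members, and xylose 3 was at least 0.9 of xylose 2 in 1, estExt_fgenesh5_pg.C_40323, named after its values were seen, with 31.8, 9.86 and 8.97 FPKM in xylose 1, 2 and 3. Those 10 were all the reference models with xylose 1 at least 3 times both other xylose libraries. In 3 of the 10, xylose 2 was within or below the range of the glucose libraries, so for these only xylose 1 was above every glucose library. Xylose 3 was below every glucose library in some of them, named after their values were seen. These were estExt_GeneWisePlus.C_11523 (6.16 FPKM, glucose 7.61 to 9.95) and estExt_fgenesh5_pg.C_20566 (3.48 FPKM, glucose 7.78 to 8.46).

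**Figure D3:**
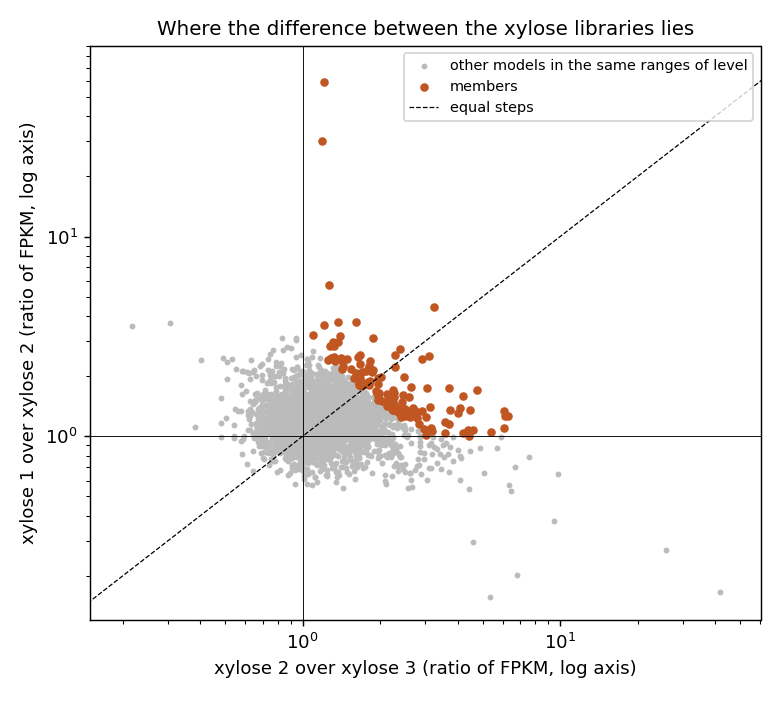
Ratio of xylose 1 to xylose 2 (vertical log axis) against ratio of xylose 2 to xylose 3 (horizontal log axis) for 129 members (orange) and the other reference models (grey); the dashed line marks equal steps. Most members, 78, lie on the side of the larger step between xylose 2 and 3, and a pair of members stands far up with ratios of xylose 1 to xylose 2 of 59.6 and 29.9.

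The members with the 4 largest ratios of xylose 1 to xylose 3 differed in where that difference lay. estExt_GeneWisePlus.C_210285, on scaffold 21 with an implied length of 4257 nt, had 216.8, 3.64 and 3.0 FPKM in xylose 1, 2 and 3, a 72.4-fold difference between xylose 1 and 3 (exact 95% counting interval 61.5 to 85.8). In glucose 1, 2 and 3 it had 2.06, 2.37 and 1.89 FPKM. It was high in 1 library of 6, and xylose 2 and 3 lay close above glucose. With 9914 reads in xylose 1 against 177 in xylose 2 and 146 in xylose 3, the step between xylose 2 and 3 was not resolved.

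fgenesh5_pg.C_scaffold_21000126, on the same scaffold with an implied length of 801 nt, had 163.3, 5.46 and 4.58 FPKM in xylose 1, 2 and 3, a 35.7-fold difference between xylose 1 and 3 (interval 26.2 to 49.7). Its glucose levels were 3.23, 5.93 and 3.44 FPKM, so xylose 2 and 3 lay inside the glucose range. fgenesh5_pg.C_scaffold_3000034, on scaffold 3, had 147.4, 33.4 and 10.3 FPKM in xylose 1, 2 and 3, a 14.3-fold difference (interval 10.8 to 19.2). It was graded over all 3 libraries, and each of them was above its glucose levels of 1.23, 3.47 and 3.36 FPKM. e_gw1.26.68.1, on scaffold 26, had 44.6, 26.1 and 5.5 FPKM in xylose and 8.18, 8.06 and 11.5 in glucose, so that xylose 1 and 2 lay above and xylose 3 below every glucose library.

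Both members with xylose 1 far above the rest are on scaffold 21, by the scaffold number in their names. Over all 7766 tested models, 39 had xylose 1 at least 3 times both other xylose libraries. Of these, 6 were on scaffold 21, where 135 tested models (1.74%) lie. This scaffold was chosen after the members' values were seen and no other scaffold was counted this way, so the shares are a description. The other 4 of the 6 models missed the set through the limits on level. They were e_gw1.21.97.1, fgenesh5_pg.C_scaffold_21000129, estExt_fgenesh5_pg.C_210125 and gw1.21.79.1, and they were named after their values were seen. e_gw1.21.97.1 had 121.2, 2.01 and 1.07 FPKM in xylose 1, 2 and 3, and 0.0862, 0.0759 and 0.234 in glucose. fgenesh5_pg.C_scaffold_21000129 had 105.3, 3.96 and 2.24 FPKM in xylose and was listed at 0 in the 3 glucose libraries. Xylose 1 alone was above 100 FPKM in these, as it was in estExt_fgenesh5_pg.C_210125, with 134.8, 6.84 and 5.97 FPKM in xylose. gw1.21.79.1 stood higher, with 327.3, 77.6 and 55.2 FPKM in xylose and 11.2, 15.4 and 11.3 in glucose. Models numbered 126 and 129 belong to 1 prediction series, and estExt_fgenesh5_pg.C_210125 has number 125 in a series of similar name. The labels do not say whether numbers are shared between series or follow the order on the scaffold. How near the 6 models lie to each other was therefore not determined.

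**Figure D4:**
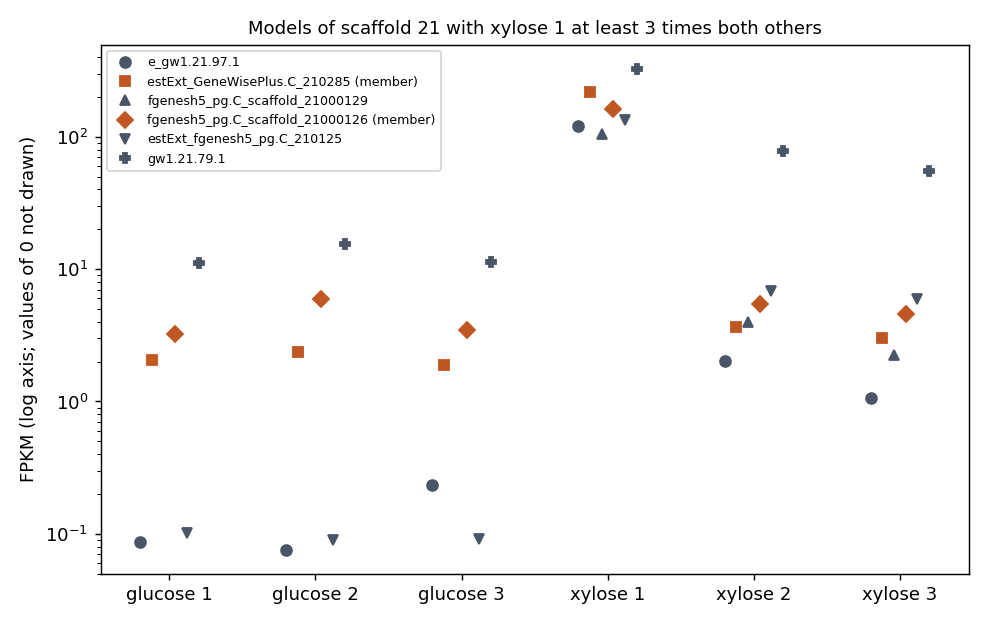
FPKM (log axis) in each library for the 6 tested models of scaffold 21 with xylose 1 at least 3 times both other xylose libraries; orange symbols are members, dark symbols models outside the limits on level, and values of 0 are not drawn. Every model is highest in xylose 1, with 105.3 to 327.3 FPKM there.

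The members with the highest mean in xylose were estExt_GeneWisePlus.C_50653, e_gw1.15.57.1, estExt_fgenesh5_pg.C_40582 and estExt_fgenesh5_pg.C_90335. estExt_GeneWisePlus.C_50653, on scaffold 5, had 225.4, 122.2 and 73.8 FPKM in xylose 1, 2 and 3 and 6.88, 9.33 and 7.53 in glucose. estExt_fgenesh5_pg.C_90335, on scaffold 9, had 192.3, 129.4 and 57.4 FPKM in xylose and 7.21, 8.41 and 4.53 in glucose. In both, even the lowest xylose library was far above the glucose range. e_gw1.15.57.1, on scaffold 15, was different, with 254.1, 86.2 and 63.0 FPKM in xylose and 64.2, 137.2 and 49.9 in glucose. Its sugars overlapped, glucose 2 was above xylose 2, and its range within glucose was 2.75-fold.

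Set against glucose, the xylose libraries of most members, as of most reference models, stood above the glucose libraries all through. Every xylose library was above every glucose library in 90 members (69.8%), in 69.7% of the reference models and in 66.2% of all tested models. In 0 members was every xylose library below every glucose library, against 12.2% of the reference models and 15.2% of all tested models. By limma on log2(FPKM + 1), with Benjamini-Hochberg adjustment over all 7766 tested models and a threshold of 0.05, 98 of the 129 members were called higher in xylose and 0 lower, and 31 were not called. Of all tested models 64.8% were called higher, 14.1% lower and 78.9% in either direction. The rule used both means, so nothing is read from the difference between these shares. At an unadjusted limma p under 0.05, 1 member was lower, and voom on the reads worked out from the FPKM steps called 94 higher and 0 lower. The split depended on the scaling, with 67 members higher and 19 lower under the median of ratios. It also depended on xylose 1, without which 91 were higher and 9 lower.

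The members' median log2 fold change, xylose minus glucose, was 1.95 on the log2(FPKM + 1) scale, with a median SE of 0.395. The reference models, members included, had a median of 1.17 with a median SE of 0.228, and all tested models a median of 1.10. The largest rises were those of estExt_fgenesh5_pg.C_90027 and estExt_fgenesh5_pg.C_40582. estExt_fgenesh5_pg.C_90027, on scaffold 9, had 119.1, 87.5 and 38.2 FPKM in xylose 1, 2 and 3 and 2.15, 1.11 and 1.72 in glucose, which gave a log2 fold change of 4.83 with an SE of 0.37. estExt_fgenesh5_pg.C_40582, on scaffold 4, had 195.4, 122.1 and 62.2 FPKM in xylose and 3.01, 6.01 and 2.6 in glucose, which gave 4.63 on the log2 scale with an SE of 0.39. In both the grading within xylose, just over 3-fold, was small beside the distance to glucose. No fall was called, so none is named.

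Where the glucose mean lay within the xylose range divided the members further. It lay below xylose 3 in 96 members (74.4%), and below every xylose library in 74.1% of the reference models. The classes are cut by the glucose mean, so nothing is read from the calls in each class. Of the reference models 68.2% were called higher. The 96 members had medians of 37.8, 22.4 and 9.97 FPKM in xylose 1, 2 and 3 and of 3.22, 4.05 and 2.81 in glucose 1, 2 and 3. In these 96 the median ratio to the glucose mean was 12.8 for xylose 1 and 3.08 for xylose 3, and 94 of the 96 were called higher. The 2 that were not called are estExt_GeneWisePlus.C_210285 (log2 fold change 2.36, SE 1.2) and fgenesh5_pg.C_scaffold_21000126 (log2 fold change 1.84, SE 1.02), both high in xylose 1 alone.

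In the other 33 members xylose 3 was at or below the glucose mean. The glucose mean lay between xylose 3 and xylose 2 in 19 of them, with medians of 37.5, 25 and 9.75 FPKM in xylose 1, 2 and 3 and of 13.9, 14.9 and 14.2 in glucose, and 4 of the 19 were called higher. It lay between xylose 2 and xylose 1 in 13, with medians of 31.5, 12.2 and 6.94 FPKM in xylose and of 16.9, 20.2 and 13.0 in glucose, and 0 of the 13 were called. In 1 member it was above xylose 1. That member, estExt_GeneWisePlus.C_11737, named after its values were seen, had 26.0, 20.8 and 8.01 FPKM in xylose and 30.3, 31.7 and 23.7 in glucose, with -0.75 as its log2 fold change and an SE of 0.35, and was not called, whereas under the median of ratios it was called lower at -1.91.

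In 26 members (20.2%) xylose 1 was above and xylose 3 below every glucose library, a pattern found in 4.04% of the reference models. The requirement of a 3-fold difference between these libraries favours it, so the shares are a description. For such members the sign of the difference from glucose depended on which xylose library was read. fgenesh5_pg.C_scaffold_17000141, chosen after its values were seen, had 48.1, 43.9 and 7.26 FPKM in xylose 1, 2 and 3 and 24.5, 30.0 and 24.3 in glucose. On the log2 scale the difference was -0.04 with an SE of 0.55 (-1.21 and called lower under the median of ratios), although xylose 1 and 2 lay above and xylose 3 below every glucose library.

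**Figure D5:**
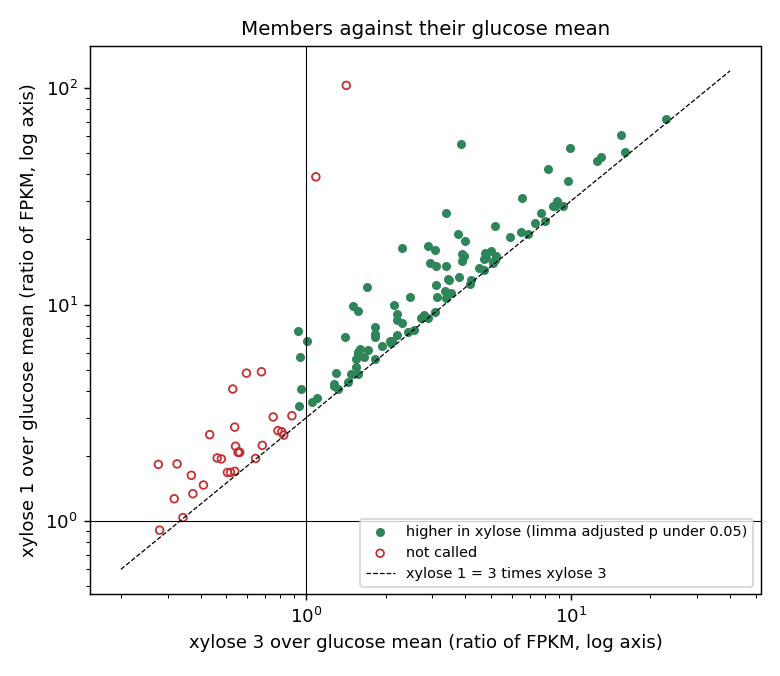
Xylose 1 over the glucose mean (vertical log axis) against xylose 3 over the glucose mean (horizontal log axis) for the 129 members; filled green points were called higher in xylose by limma, open red points were not called, and solid lines mark equality with glucose. The 33 members left of the vertical line had xylose 3 at or below the glucose mean, and the 2 open points high above the dashed line are the members of scaffold 21 that were high in xylose 1 alone.

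Within glucose, which the rule used only as a mean, the members varied somewhat more than the reference models. Their range of at least 3-fold within xylose was set by the rule, so the spreads within the 2 sugars are not compared. The highest glucose library was a median of 1.45 times the lowest, with quartiles of 1.3 and 1.77, where the reference models had a median of 1.3. A range of at least 1.5-fold was seen in 56 members (43.4%) and in 27.6% of the reference models. The members also stood lower on glucose, with a median mean of 4.35 FPKM against 11.9, and the part of this lower level in the wider range was not tested. A range of at least 3-fold was seen in 4 members (3.1%) and in 1.77% of the reference models, and the 4 members had glucose means of 1.15 to 4.26 FPKM. The widest was fgenesh5_pg.C_scaffold_25000079, with 2.53, 0.446 and 0.459 FPKM in glucose 1, 2 and 3, which stand for 5, 1 and 1 reads. The narrowest was e_gw1.23.82.1, with 5.47, 5.12 and 5.39 FPKM from 47, 50 and 51 reads.

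The order glucose 1 above 2 above 3 was seen in 18 members (14%) and in 16.2% of the reference models. Glucose 2 was the highest glucose library in 81 members (62.8%) and in 47.3% of the reference models. With the median of ratios these shares were 53.5% and 38.4%. Glucose 3 was the lowest in 65 members (50.4%) and in 44.0% of the reference models.

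The members were spread over the genome. They lay on 32 of the 46 scaffolds that held a reference model, with the most, 17, on scaffold 1, which also held the most reference models, 434. Among the 26 scaffolds with at least 40 reference models, members made up from 0.952% (1 of 105 on scaffold 16) to 10.2% (5 of 49 on scaffold 19), and none of these scaffolds was without a member. Scaffold 17 had 6 of 78 (7.69%) and scaffold 21 had 5 of 77 (6.49%). No 2 members had consecutive numbers within a prediction series and scaffold, and 3 pairs were at most 4 numbers apart. Numbers were compared only within a series, so neighbours named from different series could not be found this way. The closest pairs, named for their numbers, were e_gw1.3.1035.1 with e_gw1.3.1038.1, estExt_GeneWisePlus.C_140246 with estExt_GeneWisePlus.C_140249, and estExt_fgenesh5_pg.C_190128 with estExt_fgenesh5_pg.C_190132.

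Members of such a pair were not graded alike. estExt_fgenesh5_pg.C_190128 had 77.3, 31.5 and 22.3 FPKM in xylose 1, 2 and 3, and estExt_fgenesh5_pg.C_190132 had 92.5, 83.7 and 26.6. The larger step lay between xylose 1 and 2 in the first and between xylose 2 and 3 in the other. Likewise e_gw1.3.1035.1 had 30.4, 25.7 and 7.18 FPKM and e_gw1.3.1038.1 had 88.2, 35.3 and 26.8. In estExt_GeneWisePlus.C_140246 the levels were 32.6, 17.5 and 9.75 FPKM and in estExt_GeneWisePlus.C_140249 they were 95.9, 72.0 and 26.4.

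Model length and prediction series were compared as a description. The members' implied lengths had a median of 1184 nt with quartiles of 823 and 1551, against 1320 nt with quartiles of 840 and 1935. The estExt series named 71 members (55.0%) and 47.9% of the reference models. The largest single series was estExt_GeneWisePlus, with 37 members (28.7%), which named 19.2% of the reference models, and the e_gw1 series named 26 members (20.2%) and 24.4% of the reference models. These are counts of models, with no test.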

How the data were processed

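RNA was sequenced in 3 glucose and 3 xylose libraries. The deposited values are FPKM, made by the authors, 1 column per library, tied to samples through their label descriptions. Trizol extraction and a kit sold for DNA libraries are what the labels' protocols give. Per the submitters' processing notes the tools included HTSeq 0.6.1, TopHat2 2.0.12 and Bowtie2 2.2.3, without their roles. For the genome build, the annotation and strand use the entry is: not given in the sources. Values of overlapping or near-identical models are therefore uncertain. FPKM divides by the library total, so abundant genes move all others.

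Members were found by the rule in Python 3.11.15. Whole reads, lengths from 60 to 20000 nt and library totals were worked out from the FPKM steps for 9008 of 9129 models. A length is the smallest solution. log2(FPKM + 1) was fitted by sugar with limma 3.58.1 (eBayes with a trend, R 4.3.3), two-sided, for the 7766 models averaging 1 FPKM or more. Counting intervals are exact binomial (Clopper-Pearson, SciPy 1.17.1), and cover counting error only, as reads lacking molecular identifiers can be copies of 1 molecule. The recovery of reads and the limma fit were run on simulated data, and the counting intervals were not. The simulation for the fit changed few models and gave all models the same spread beyond counting error. These data differ in both, so it does not measure the error of the calls.

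The members, lists and comparisons were chosen with earlier results of these data known. Named models are those with the largest ratio of xylose 1 to 3, the highest xylose mean, the largest called change, the extreme steps or glucose ranges, and those next to the limit, and any other is said to be chosen after its values were seen. The same replicate numbers occur in both groups. Libraries with the same number did not deviate together (correlations of 0.001, -0.072 and 0.073), which is why no pairing was used. Alternatives were pseudocounts, filters, scalings, a replicate block, voom, other limits on the ratio and leaving out each library.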

Additional observations from a re-analysis of the deposited data

How the results depend on the processing

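The number of members, 129, was 24 when levels were scaled by the median of ratios, 36 after quantile normalization, and 641 or 43 with a limit of 2 or 4 on the ratio of xylose 1 to 3. Leaving out single libraries gave 126 to 152 members. Without xylose 1 or xylose 3 the rule could not be applied. Members called higher numbered 57 after quantile normalization, and 91 to 113 when single libraries were left out. Members called lower, 0 as reported, were 19 under the median of ratios, 16 after quantile normalization, 2 with the replicate block, and 0 to 9 when single libraries were left out, with 9 without xylose 1. Over all models, calls higher and lower became 2980 and 2721 under the median of ratios, and 2646 and 2580 after quantile normalization. Single libraries left out gave 4685 to 5247 higher and 959 to 1172 lower, and the replicate block 5034 and 1067. The median range within glucose was 1.23 to 1.29 without 1 glucose library, since 2 libraries span less than 3. The median part of the difference between xylose 1 and 2 was 30.8% under the median of ratios. The other planned settings moved no count by over 1.5 times. For 17 models named in the text, 232 of 255 refits kept the sign of the log2 fold change and the side of the threshold, 12 gained a call, 3 lost one and 8 changed sign. The sign changes were all in models not called as reported. e_gw1.26.68.1, at 0.98, became -0.14 under the median of ratios and -0.11 after quantile normalization. e_gw1.15.57.1, at 0.54, became -0.66 under the median of ratios, and ran from -0.05 to 0.97 when single libraries were left out, negative without xylose 1. fgenesh5_pg.C_scaffold_17000141, at -0.04, became 0.03 with a pseudocount of 5 and 0.01 as TPM, and ran from -0.49 to 0.79 when single libraries were left out, positive without glucose 2 or xylose 3. estExt_GeneWisePlus.C_11737 was called lower under the median of ratios (-1.91), after quantile normalization (-1.65), with the replicate block and without xylose 1. Both members high in xylose 1 on scaffold 21 gained calls with the replicate block or without xylose 2 or 3. The causes were not tested. Depth limits mainly the glucose values, where a member could rest on 1 read.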

Other observations

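Another 23 reference models had xylose 1 at least 3 times xylose 3 without being members, and in all 23 xylose 2 was above xylose 1. None of them (0) had xylose 2 below xylose 3. On scaffolds 7, 29 and 33, which the rule leaves out, 236 models lay in the same ranges of level and 7 of them met every other condition.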
